A study of Mus musculus with 6 samples.

Results

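The Cyp2b cytochromes P450 and the nuclear receptors CAR (constitutive androstane receptor, gene Nr1i3) and PXR (pregnane X receptor, gene Nr1i2) were examined in livers lacking RECS1 in hepatocytes. The 7 members were Cyp2b9, Cyp2b10, Cyp2b13, Cyp2b19, Cyp2b23, Nr1i3 and Nr1i2. They were taken by gene symbol from the platform annotation, and 6 of the 7 had at least 1 probe set, 9 probe sets in all, among 18029 measured genes and 38195 probe sets. Only probe sets annotated to 1 gene were used. Cyp2b23 has none of these and is not analysed further as a transcript. The family was chosen by the large difference of Cyp2b9 between the same 6 arrays, so the members' differences are given as a description, without a p-value.

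Mice with floxed RECS1 alleles (RECS1-flox, control, n = 3) were compared with hepatocyte-specific RECS1-deficient mice (RECS1-HKO, called HKO here, n = 3). The gene is listed under its current symbol, Tmbim1. All 6 mice were of C57BL/6 background, received a high fat diet for 8 weeks from the age of 8 weeks, and were 16 weeks old. The labels state neither the Cre driver behind the deletion nor the sex of the mice. Each array holds RNA of 1 liver, and the deposited values are log2 intensities that the authors made with RMA, so a difference of 1 is a factor of 2. Tmbim1 stood at 7.65 ± 0.08 in control and 7.13 ± 0.07 in HKO liver (mean ± SD, n = 3 each), a difference of -0.52 ± 0.08 (SE, limma adjusted p = 0.026), which passed in 0 of 6 fits that each left out 1 array.

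Cytochromes P450 of the 2B subfamily are membrane enzymes of the endoplasmic reticulum that oxidise drugs, steroids and fatty acids. CAR is held in the cytoplasm of hepatocytes until a drug such as phenobarbital, or another signal, sends it to the nucleus, where it binds DNA together with the retinoid X receptor. PXR is a related receptor that is opened directly by many foreign compounds and steroids, and both receptors act on genes of drug metabolism and transport. Cyp2b10 is the classic CAR target of mouse liver, whereas Cyp2b9 and Cyp2b13 are best known as transcripts that female mouse liver holds at higher levels than male liver. Cyp2b19 is known as an epidermal enzyme.

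The upstream sequences of the family were set beside the measurements because the pair of members with the highest differences, Cyp2b9 and Cyp2b13, share nearly the same one. The 250 bases before the annotated start of each gene were taken from RefSeq (GRCm38.p6), which held all 7 members. Capitals mark AGGTCA, the half-site bound by many nuclear receptors. Cyp2b9 lies on the plus strand with its window at chr7:26173159-26173408, Cyp2b13 at chr7:26061245-26061494 and Cyp2b10 at chr7:25897408-25897657, both also on the plus strand.
Cyp2b9: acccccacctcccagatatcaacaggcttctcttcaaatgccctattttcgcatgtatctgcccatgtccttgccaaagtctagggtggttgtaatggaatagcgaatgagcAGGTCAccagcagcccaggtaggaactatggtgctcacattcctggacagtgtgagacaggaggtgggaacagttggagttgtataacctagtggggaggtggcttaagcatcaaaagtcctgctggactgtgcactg
Cyp2b13: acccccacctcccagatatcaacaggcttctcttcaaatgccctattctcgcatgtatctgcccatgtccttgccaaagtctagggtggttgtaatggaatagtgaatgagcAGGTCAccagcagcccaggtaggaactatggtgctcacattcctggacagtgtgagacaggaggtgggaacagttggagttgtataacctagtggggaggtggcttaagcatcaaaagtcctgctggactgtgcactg
Cyp2b10: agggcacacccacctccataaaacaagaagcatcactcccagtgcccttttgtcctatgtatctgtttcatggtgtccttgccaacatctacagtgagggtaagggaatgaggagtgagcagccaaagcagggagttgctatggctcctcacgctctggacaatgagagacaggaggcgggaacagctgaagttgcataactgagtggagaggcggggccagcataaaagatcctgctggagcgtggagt

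Counted from 1 at the 5′ end of the window, the Cyp2b9 and Cyp2b13 sequences differ by 2 substitutions, T48C and C104T, with the Cyp2b9 base first. They lie 203 and 147 bases before the start. The remaining 248 of 250 bases are identical (99.2%), and neither substitution touches the AGGTCA, which begins 138 bases before the start in both. The Cyp2b10 window aligned to that of Cyp2b9 with 182 identical bases of the 240 aligned without a gap (75.8%). Its highest share among the Cyp2b windows was with Cyp2b23, at 180 of 211 (85.3%), over fewer aligned bases.

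AGGTCA, searched on both strands as AGGTCA or TGACCT, was in the windows of Cyp2b9, Cyp2b13, Cyp2b19 and Cyp2b23 and not in those of Cyp2b10, Nr1i3 or Nr1i2. Of all 32851 windows of this length in the table, 14.0% hold it. A direct repeat of AGGTCA with 4 bases between the copies, on either strand, was in 0 of the 7 windows and in 0.015% of all. The motifs TTCNNNGAA (the STAT5 type, 7.02% of all windows, the same letters on both strands), TGTTTAC (the FOXA type, 3.17%) and TATAAA (12.4%) were also in none of the 7. CATAAAA, which was added to the search after the sequences had been read, was in the windows of Cyp2b10, Cyp2b19 and Cyp2b23 (3.77% of all). In Cyp2b10 one copy lies 28 to 22 bases before the start, where Cyp2b9 and Cyp2b13 do not have these letters. These are matches of letters, and enhancers farther from the gene were not examined.

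Cyp2b9 had the highest difference of the members and of all measured genes. Its probe set, 1419590_at, read 3.75, 3.37 and 3.28 in the 3 control livers and 9.86, 9.32 and 10.06 in the 3 HKO livers. Every HKO value was therefore more than 5 log2 units above every control value, and the spread within a genotype was small beside that gap. The means were 3.46 ± 0.25 and 9.75 ± 0.38 (SD, n = 3), a difference of 6.28 ± 0.19 (SE), or 77.9-fold. In control liver 41.6% of all probe sets were as dim as this one or dimmer, and in HKO liver 97.7%. The fold therefore starts from a dim level, where RMA values flatten, and leaving out 1 array at a time kept the difference between 6.13 and 6.50. In liver RNA as a whole, fewer cells of a type and less RNA per cell cannot be told apart.

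**Figure D1:**
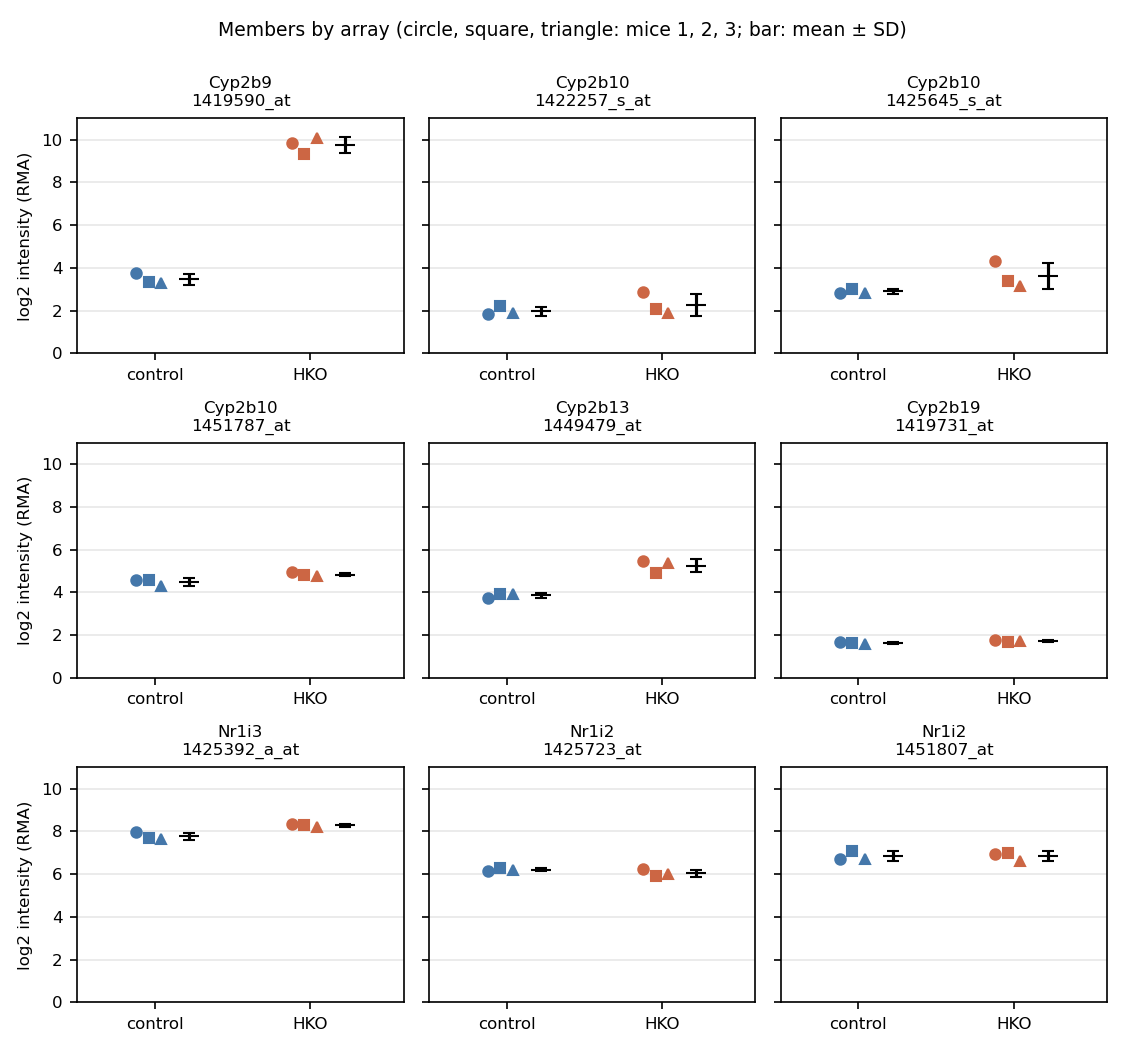
Log2 intensity (RMA, y axis) of the 9 member probe sets in 3 control (blue) and 3 HKO (orange) livers, with the mean and SD of each genotype as a black bar. Cyp2b9 goes from 3.46 to 9.75, Cyp2b13 from 3.86 to 5.25, and both Nr1i2 probe sets overlap between genotypes.

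Cyp2b13 followed in the same direction at a smaller size. Its probe set read 3.73, 3.93 and 3.93 in control and 5.47, 4.91 and 5.37 in HKO livers, with no overlap between the genotypes. The difference was 1.38 ± 0.14 (SE), or 2.61-fold, from 3.86 ± 0.12 to 5.25 ± 0.30 (SD, n = 3). The HKO 2 liver had the lowest value of its genotype for Cyp2b13, as it had for Cyp2b9. Because these transcripts are close relatives, how much of the Cyp2b13 signal comes from Cyp2b9 RNA binding to the same probes was not tested. Probe sequences were not used here.

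Cyp2b10, the CAR target, was read by 3 probe sets that differed in size. The brightest, 1451787_at, read 4.60, 4.60 and 4.29 in control and 4.94, 4.79 and 4.78 in HKO livers, a difference of 0.34 ± 0.11 (SE), or 1.27-fold. All 3 HKO values lay above all 3 control values, by a margin of less than 0.2 at the nearest pair (4.78 against 4.60). The probe set 1425645_s_at read 2.84, 3.03 and 2.84 in control and 4.31, 3.39 and 3.16 in HKO livers, a difference of 0.72 ± 0.25. Its genotypes did not overlap either, but the HKO 1 liver stood well above the other two, and without it the difference was 0.37. The third, 1422257_s_at, overlapped between genotypes and read 1.85, 2.22 and 1.87 against 2.86, 2.09 and 1.89, a difference of 0.30 ± 0.23 that was 0.01 without HKO 1. The letter s in both names is Affymetrix's mark for probes shared by several transcripts, which may belong to related genes.

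Cyp2b10 thus had nothing near the 77.9-fold difference of Cyp2b9 in any of its probe sets, where the range was 1.23-fold to 1.65-fold. Both ends of that range come from dim probe sets. In control liver 15.8% of all probe sets were as dim as 1422257_s_at or dimmer, 31.5% for 1425645_s_at and 59.0% for 1451787_at. The order of the HKO livers was also not the same. HKO 1 was highest in all 3 Cyp2b10 probe sets, while HKO 3 was highest for Cyp2b9 and lowest of its genotype in all 3 Cyp2b10 probe sets. With 3 livers per genotype this order is a description only.

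Cyp2b19, the epidermal enzyme, read 1.70, 1.62 and 1.57 in control and 1.75, 1.69 and 1.74 in HKO livers, and the genotypes overlapped. Only 9.69% of probe sets were as dim or dimmer in control liver, and the difference was 0.10 ± 0.08 (SE). Its level is too near the low end of the array for a difference to be read.

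**Figure D2:**
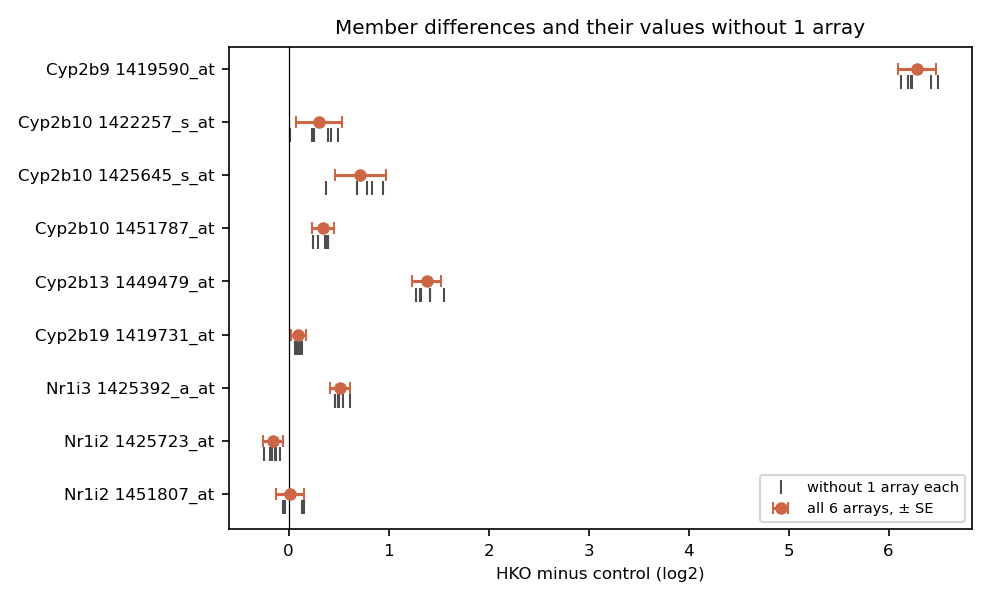
HKO minus control difference (x axis, log2) of each member probe set with its SE (orange point and bar) and the 6 values obtained without 1 array each (grey ticks). Cyp2b9 lies between 6.13 and 6.50 without any 1 array, while 1422257_s_at of Cyp2b10 comes down to 0.01.

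The receptor CAR was moderately higher in HKO liver. Nr1i3, read by 1 probe set, stood at 7.97, 7.67 and 7.67 in control and 8.33, 8.31 and 8.23 in HKO livers. The genotypes did not overlap, and the HKO livers lay closer together (SD 0.06) than the control livers (SD 0.17). The difference was 0.52 ± 0.10 (SE), or 1.43-fold, and lay between 0.47 and 0.62 without any 1 array. This probe set was bright in both genotypes, with 91.4% of probe sets as dim or dimmer in control liver.

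For PXR the genotypes overlapped in both probe sets. The brighter Nr1i2 probe set, 1451807_at, read 6.70, 7.11 and 6.71 in control and 6.96, 6.99 and 6.61 in HKO livers, a difference of 0.02 ± 0.14 (SE). The other, 1425723_at, read 6.15, 6.28 and 6.18 against 6.22, 5.91 and 6.00, a difference of -0.16 ± 0.10. Leaving out 1 array moved the first to between -0.05 and 0.15 and the second to between -0.25 and -0.09.

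Of the 9 member probe sets, 5 had all HKO values above all control values (1 of Cyp2b9, 1 of Cyp2b13, 2 of Cyp2b10 and 1 of Nr1i3), where 7.8% of all probe sets did. An adjusted p under 0.05 in limma, with Benjamini-Hochberg adjustment over all 38195 probe sets, was reached on the higher side by 2 of the 9 (Cyp2b9 and Cyp2b13), against 0.367% of all. With 1 probe set a gene, the brightest, 2 of the 6 measured members reached it, against 0.56% of all genes on the higher side. Since the same contrast chose the family, nothing is read from these counts.

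**Figure D3:**
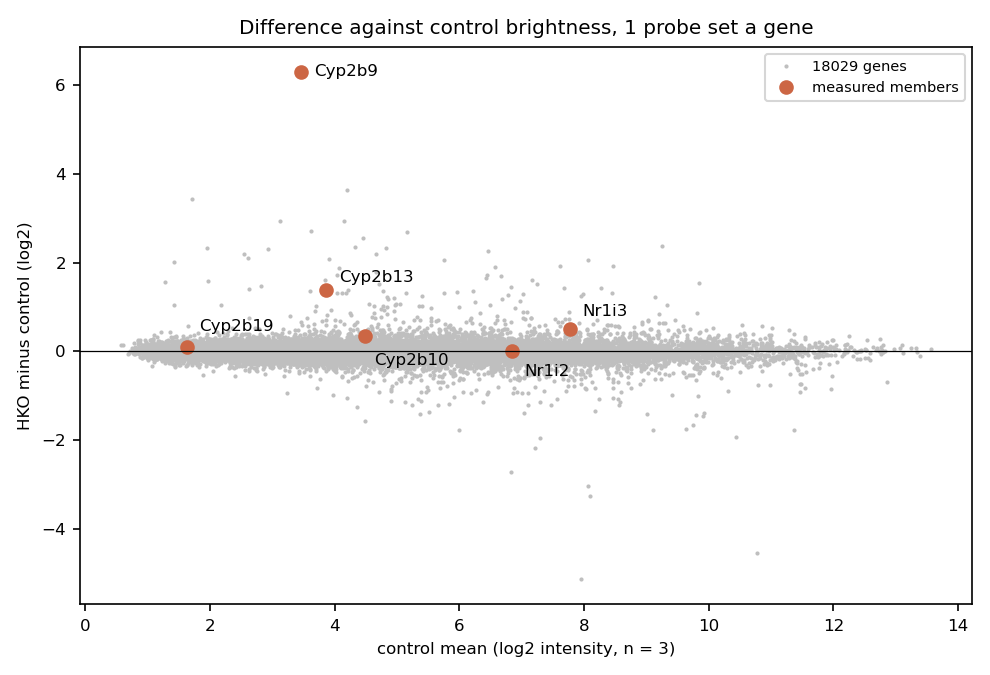
HKO minus control difference (y axis, log2) against the control mean (x axis, log2 intensity) of 18029 genes (grey), with the 6 measured members in orange. Cyp2b9, at 3.46 in control liver, has the highest difference of all genes, 6.28.

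The Cyp2b genes lie together on chromosome 7, in the order Cyp2b10, Cyp2b13, Cyp2b9, Cyp2b23, Cyp2b19, with 21 annotated loci from the first to the last. Of these 21, 11 are protein-coding, 8 are pseudogenes, 3 of them Cyp2b copies, and 7 were measured. No Cyp2b gene lies between Cyp2b13 and Cyp2b9 except the pseudogene Cyp2b26-ps. The 3 measured genes that are no P450 were the inflammasome-family genes Nlrp9c at 0.07 ± 0.10 (SE), Nlrp4a at -0.22 ± 0.09 and Nlrp9a at 0.00 ± 0.12. None of these 3 passed in limma (adjusted p = 0.804, 0.34 and 0.996), and 1, Nlrp4a, had an unadjusted p under 0.05. All 3 are dim, with means over the 6 arrays between 1.22 and 2.03.

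**Figure D4:**
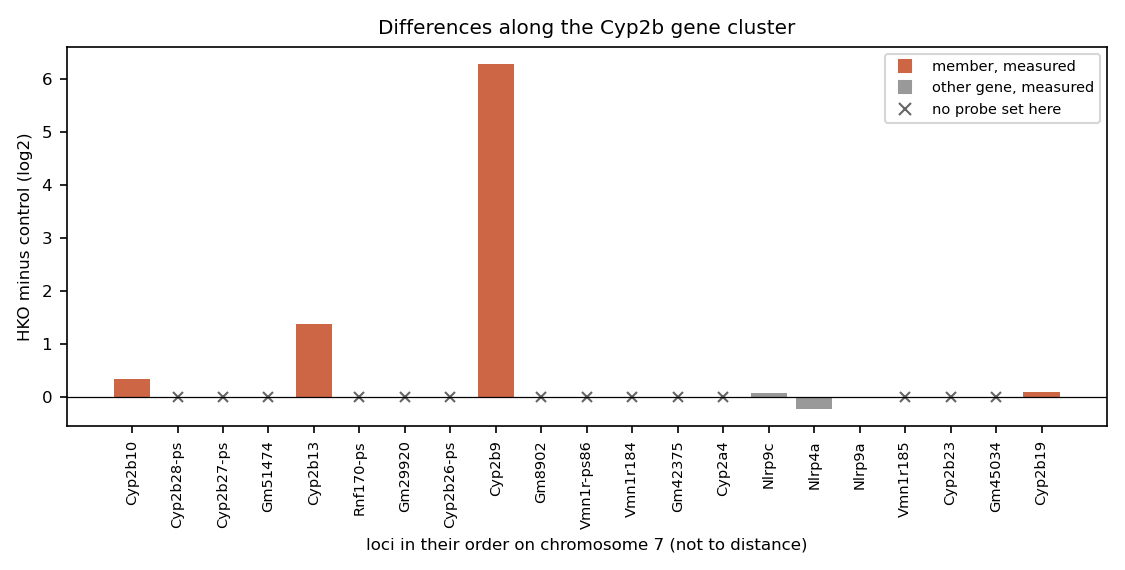
HKO minus control difference (y axis, log2) of the measured genes in their order along the Cyp2b cluster of chromosome 7 (x axis, order only). Members are orange and other genes grey, and crosses mark loci with no probe set annotated to them alone. The bars of Cyp2b13 (1.38) and Cyp2b9 (6.28) stand apart from their measured neighbours.

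Genes that CAR and PXR are known to act on were examined as a list of 32, the members aside, of which 26 were measured. In limma with adjustment over all 18029 genes, 2 rose, 1 fell and 23 did not pass, where 0.56% of all genes rose and 0.449% fell (1.01% in all). Slco1a4, a hepatic uptake transporter, rose by 1.66 ± 0.25 (SE, adjusted p = 0.0257), from 6.35, 6.53 and 6.41 in control to 8.40, 7.41 and 8.44 in HKO livers. HKO 2 was again the lowest of its genotype. Abcc3, an exporter of conjugates into the blood, rose by 0.65 ± 0.11 (adjusted p = 0.0457), and Gstp1, a glutathione transferase with a near-identical copy in the mouse, fell by 0.68 on the log2 scale (adjusted p = 0.031). Each of these 3 passed in 1 of the 6 fits that left out 1 array, and Slco1a4 in 6, Abcc3 in 7 and Gstp1 in 8 of 8 other refits of all arrays.

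The 23 targets that did not pass ranged widely in size. Cyp3a11, the standard PXR readout of mouse liver, stood at 0.21 ± 0.20 (SE, limma adjusted p = 0.712), and Cyp2c29, a CAR-inducible P450, at 0.36 ± 0.14 (0.34). Cyp2c55 stood at 0.67 ± 0.18 (0.179), the exporter Abcb1a at 0.59 ± 0.16 (0.183) and the CAR-responsive Gadd45b at 0.06 ± 0.08 (0.811). The glutathione transferases Gstt3 and Gstm3 stood at 0.88 ± 0.17 (0.0635) and 1.32 ± 0.44 (0.257), above the value of Abcc3, and their genotypes did not overlap. Cyp1a2 was on the other side, at -0.43 ± 0.16 (0.32).

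The median of the 26 was 0.20, against -0.0041 over all genes, and 18 of the 26 had a positive value, against 8791 of the 18029. In limma 14 of the 26 had an unadjusted p under 0.05 (53.8%, against 13% of all genes). In 12 of the 26 all HKO values lay above all control values, against 8.58% of all genes, and in 2 all lay below, against 10.1%. This list was drawn up with results of these arrays already known, so its counts are no independent evidence about the receptors.

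Partners, coregulators and upstream factors of the receptors formed a list of 26, of which 23 were measured. None passed in limma, although 7 had an unadjusted p under 0.05 (30.4%), as did 2342 of all 18029 genes (13%). The median was -0.08. In 8 of the 23 every HKO liver read lower than every control liver, against 10.1% of all genes. In 1 every HKO liver read higher, against 8.58%. Nr0b2, the small heterodimer partner, which represses other nuclear receptors, stood at -0.69 ± 0.14 (SE, adjusted p = 0.0703). Egfr, whose signalling keeps CAR in its inactive form, read 9.68, 9.93 and 10.18 in control and 8.93, 8.92 and 7.82 in HKO livers, a difference of -1.37 ± 0.29 (0.0807) without overlap of the genotypes. Nr0b2 and Egfr each passed in 1 of the 6 fits that left out 1 array. The chaperone Hsp90aa1, part of the cytoplasmic CAR complex, stood at -0.37 ± 0.08 (0.102) and the partner Rxrg at 0.38 ± 0.09 (0.136), whereas Rxra, the main partner in liver, stood at -0.27 ± 0.10 (0.281).

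Genes of P450 electron donors and haem supply were a list of 10, with 8 measured. These were Alad, Alas1, Cyb5a, Cyb5b, Cyb5r3, Fech, Hmox1 and Pgrmc1, so the P450 reductase gene Por was not read. Of the 8, 7 had a positive value. All HKO values lay above all control values in 3, against 8.58% of all genes, and below in 1, against 10.1%. None passed in limma, and 1 of the 8 (12.5%) had an unadjusted p under 0.05. That gene, Pgrmc1, a haem-binding P450 partner, stood at 0.19 ± 0.07 (SE, limma adjusted p = 0.319) and cytochrome b5 (Cyb5a) at 0.14 ± 0.07 (0.452). Alas1, the rate-limiting enzyme of haem synthesis and itself a CAR and PXR target, stood at 0.58 ± 0.38 (0.577).

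The other 68 measured P450 genes, a list that includes P450s of the lists before and after it, had a median of 0.00. In limma 1 rose, 3 fell and 64 did not pass, where 0.56% of all genes rose and 0.449% fell. Of the 68, 24 had an unadjusted p under 0.05 (35.3%, against 13% of all genes). All HKO values lay above all control values in 11, against 8.58% of all genes, and below in 13, against 10.1%. Cyp2c38 rose by 1.53 ± 0.18 (SE, adjusted p = 0.00705), Cyp7b1, an oxysterol hydroxylase, fell by 1.76 (0.022), Cyp2c70, which makes muricholic bile acids, fell by 0.73 (0.0427), and Cyp2d40 fell by 0.63 (0.0163). Cyp2d40 was dim in both genotypes, with means of 3.76 in control and 3.13 in HKO livers. Leaving out 1 array lost Cyp2c38 in 0, Cyp2d40 in 3, and Cyp7b1 and Cyp2c70 in 5 of 6 fits. The highest value among the 68 that did not pass was that of Cyp4a14, a fatty acid hydroxylase, at 1.54 ± 0.37 (0.13). All 68 lay between -1.76 and 1.54, so the differences of Cyp2b13 and Cyp2b10 were within this range and that of Cyp2b9 was far above it.

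**Figure D5:**
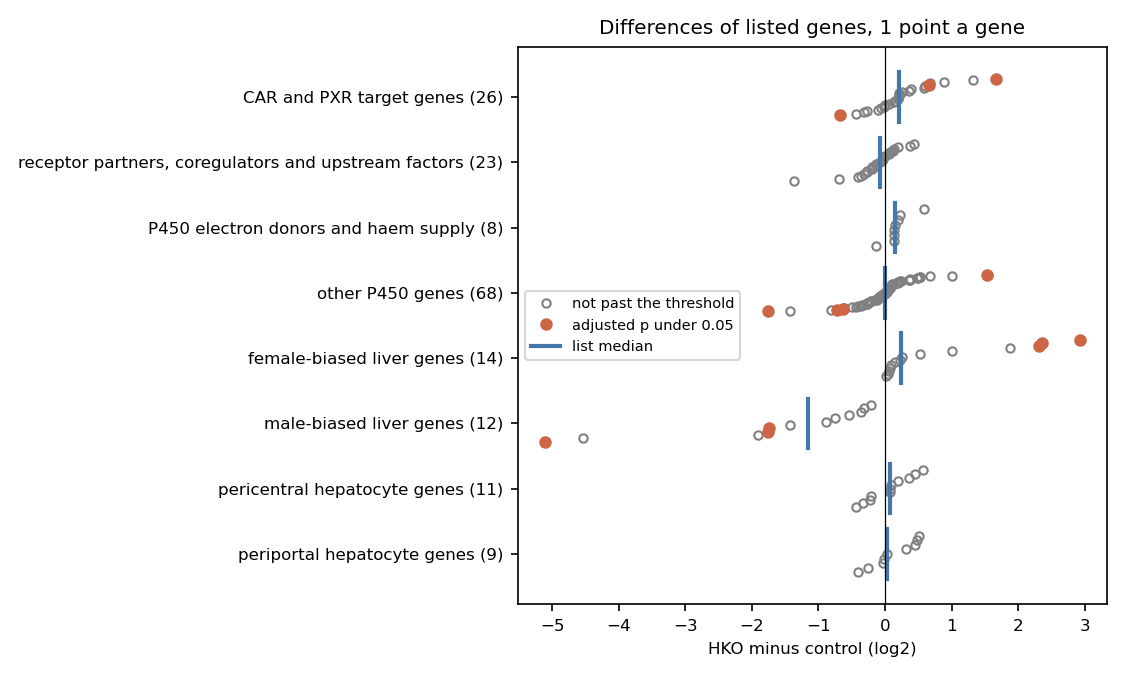
HKO minus control differences (x axis, log2) of the genes in 8 lists, 1 point a gene, with the number measured in brackets and the list median as a blue line. Filled points passed limma's adjusted threshold of 0.05, as did 2 higher and 1 lower of the 26 CAR and PXR targets and 3 lower of the 12 male-biased genes. Of all genes, 0.56% passed on the higher and 0.449% on the lower side.

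Because Cyp2b9 and Cyp2b13 are sex-biased in mouse liver, transcripts of the sex chromosomes and other sex-biased genes were read beside them. Xist, which is made from the inactive X of female cells, stood between 1.17 and 1.64 in its 2 probe sets over all 6 arrays. The brightest probe set of the Y-linked Eif2s3y lay between 6.74 and 7.14 and that of Kdm5d between 5.48 and 5.83, with the genotypes overlapping in each. None of the 4 measured sex chromosome genes passed in limma, and 0 had an unadjusted p under 0.05. The genotypes did not overlap in the second Xist probe set, which is dim in every liver, at 1.64, 1.26 and 1.40 in control and 1.22, 1.23 and 1.17 in HKO livers. Every liver thus held Y-linked transcripts at similar levels.

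Of 21 female-biased genes other than the members, 14 were measured. In limma 3 rose, where 0.56% of all genes did, and 11 did not pass. Of the 14, 5 had an unadjusted p under 0.05 (35.7%, against 13% of all genes). In 5 all HKO values lay above all control values, against 8.58% of all genes. All 14 values were positive, with a median of 0.24. Hao2, a hydroxyacid oxidase, rose by 2.93 ± 0.25 (SE, adjusted p = 0.00163), the thioesterase gene Acot3 by 2.36 ± 0.23 (0.00287) and the transporter gene Slc22a27 by 2.31 ± 0.21 (0.00229), and these 3 passed in all 6 fits without 1 array. They rose from dim control means of 3.13 for Hao2, 4.33 for Acot3 and 2.94 for Slc22a27, where the median gene stood at 4.69 over all arrays. Abcd2, a peroxisomal fatty acid transporter, stood at 1.87 ± 0.35 (0.0547). Cyp3a44 stood at 0.05 ± 0.13 (0.907), Cyp3a16 at 0.06 ± 0.14 (0.895) and Sult3a1 at 0.08 ± 0.13 (0.849), all dim in both genotypes. Cux2, a female-specific repressor of male-biased genes, stood at 0.02 ± 0.08 (0.952). The Acot3 and Slc22a27 probe sets carry Affymetrix's marks for shared or cross-hybridising probes.

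Of 15 male-biased genes, 12 were measured. In limma 3 fell, where 0.449% of all genes did, and 9 did not pass. Of the 12, 11 had an unadjusted p under 0.05 (91.7%, against 13% of all genes). In 9 the highest HKO value was under the lowest control value, against 10.1% of all genes. The median was -1.16, and 0 of the 12 had a positive value. Moxd1, a monooxygenase-like protein, fell by 5.11 (adjusted p = 0.00171) and the complement gene C6 by 1.74 (0.00544), both in all 6 fits without 1 array, and Cyp7b1 by 1.76 (0.022). Nudt7, a peroxisomal hydrolase, stood at -0.55 ± 0.11 (0.0635). Hsd3b5, a steroid dehydrogenase, read 10.76, 10.74 and 10.83 in control and 4.92, 9.50 and 4.28 in HKO livers, a difference of -4.54 ± 1.16 (SE, 0.155). HKO 2 was nearest to the controls of the 3 HKO livers for Hsd3b5, as it was for C6, Cyp7b1, Hao2, Slco1a4, Cyp2b9 and Cyp2b13, genes set side by side here after their values were seen. It was farthest from the controls for Moxd1, at 2.74 beside 2.83 and 2.93, and for Cyp2c70, at 10.53 beside 11.01 and 10.66. For Cyp2b9 the difference without HKO 2 was 6.50. Cyp2d9, a male-specific steroid hydroxylase, stood at -0.36 ± 0.16 (0.379). Both lists were drawn up with earlier results of these arrays known.

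Zonation was read because Cyp2b and other CAR targets are strongest around the central vein. Of 11 measured pericentral genes none passed in limma and 4 had an unadjusted p under 0.05 (36.4%, against 13% of all genes). The median was 0.08. Those 4 went both ways, with Oat at 0.57 and Cyp2c29 at 0.36, and Cyp1a2 at -0.43 and Gulo at -0.33. Glutamine synthetase (Glul) stood at 0.20 ± 0.11 (SE, limma adjusted p = 0.498) and Cyp2e1 at 0.07 ± 0.07 (0.721). Of 9 measured periportal genes none passed in limma and 2 had an unadjusted p under 0.05 (22.2%). Those 2 were Cyp2f2 at -0.40 ± 0.09 (adjusted p = 0.116) and Aldh1b1 at 0.52 ± 0.15 (0.201). The median of the 9 was 0.03.

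Hepatocyte markers were bright, with gene means between 10.4 and 13.6 for the 11 measured, in tissue labelled liver. Over 9 marker lists of hepatocytes, macrophages, neutrophils, lymphocytes, endothelium, stellate cells, cholangiocytes, adipocytes and keratinocytes, 58 of 64 genes were measured. None passed in limma and 4 had an unadjusted p under 0.05, a smaller share than the 13% of all genes. By list these were 2 of 11 hepatocyte markers, Fgb at -0.20 and Hnf4a at -0.28. The others were 1 of 4 cholangiocyte markers, Sox9 at -0.66, and 1 of 5 keratinocyte markers, Lor at 0.25. Summed log2 levels overlapped between genotypes in 7 lists. Those of the 4 cholangiocyte markers lay between 14.4 and 14.8 in control and between 13.0 and 13.8 in HKO livers. Those of the 5 keratinocyte markers, read because of Cyp2b19, lay between 18.9 and 19.1 and between 19.2 and 19.3. Most of these markers are dim. Gene means ran from 2.58 to 4.38 in the cholangiocyte list and from 2.56 to 5.21 in the keratinocyte list, where the median gene stood at 4.69. The part of the shifts in these 2 lists in the member values was not tested. The excess of 3′ over 5′ signal was 1.06 to 1.22 in control and 1.07 to 1.21 in HKO livers for Actb, and 0.13 to 0.29 and 0.06 to 0.20 for Gapdh.

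Genes whose pattern over the 6 arrays was most like that of Cyp2b9 were ranked by Pearson's r of log2 values among 8816 genes that were brighter than the median and had no provisional symbol. The 5 nearest were the chemokine Ccl5 (r = 0.996), the NF-kB subunit Rela (0.995), the caspase Casp8 (0.995), the chemokine Ccl4 (0.994) and the peroxisomal enzyme Ehhadh (0.994). Their differences were 2.69, 1.91, 1.29, 1.80 and 0.87. With 2 genotypes this r mostly records a step between them, and no p is given.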

How the data were processed

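Liver RNA (400 ng a sample) of 3 control and 3 HKO mice was hybridised to Affymetrix arrays. The authors deposited log2 values of 38208 probe sets, which per the submitters' processing notes come from RMA. The notes list limma too, without versions or settings. The values lie between 0.498 and 13.6. RMA brings arrays to a common distribution and flattens dim probe sets. The medians of the arrays lay between 3.92 and 3.95. Depth does not apply to arrays, whose number (3 a genotype) sets the precision.

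The 13 control probe sets were left out. Probe sets were named from the platform annotation: 34325 have 1 symbol, 62 several and 3808 none here, and 34131 matched a gene by identifier in RefSeq (GRCm38.p6). Each of 18029 genes took its probe set with the highest mean. The linear model of limma 3.58.1 under R 4.3.3 was fitted to genotype (two-sided, HKO minus control, Benjamini-Hochberg over all genes, threshold 0.05), by gene and, for the members, over all 38195 probe sets. The SE is that of the moderated fit. No pair of arrays was identical. The labels call the samples of a genotype biological samples.

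The rule for names took all member probe sets, the 4 genes of each list with the lowest p, the cluster's measured genes, the sex chromosome genes, the 5 genes most like Cyp2b9, and Tmbim1. Some of these, in lists where none passed, appear only in the counts. Other listed genes were picked for their known roles after their values were seen. Members and lists were chosen with earlier results of these data known. Windows were compared with Biopython 1.88 (global alignment, free end gaps). The alternatives were quantile normalization, median centring, trend and robust eBayes, weighting of arrays, a replicate block, 3 other choices of genes or probe sets, and leaving out each array. The fit was tested on simulated data.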

Additional observations from a re-analysis of the deposited data

How the results depend on the processing

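Each member difference moved by less than the pooled SD of its 2 genotypes under 5 other settings of the probe set fit and without any 1 array. For 1425645_s_at of Cyp2b10 that SD is 0.439 and holds the high HKO 1 value, and the difference went from 0.72 to 0.37 without it. The gene value of Cyp2b10 was 0.718 by the median of its probe sets, against 0.343. The count of 182 genes past the threshold was 125 with the replicate block and 250 with trend and robust eBayes. It was 94, 81 and 84 without control 1, 2 and 3, and 78, 161 and 92 without HKO 1, 2 and 3. Risen CAR and PXR targets numbered 2, against 3 with quantile normalization and with genes below the median left out, 1 with trend and robust eBayes and 0 with the replicate block, and 0 to 2 without 1 array (0 without control 2, control 3, HKO 1 or HKO 3, and 1 without control 1). Fallen targets numbered 1, and 0 to 1 without 1 array (0 without any one but HKO 2). Fallen partners and coregulators numbered 0, against 2 with trend and robust eBayes and 2 by the median of probe sets, and 0 to 1 without 1 array (1 without HKO 2 or HKO 3). Risen other P450 genes numbered 1, against 2 with trend and robust eBayes and 2 with the block, and 1 to 4 without 1 array (2 without control 1 and 4 without HKO 2). Fallen ones numbered 3, and 0 to 3 without 1 array (0 without control 2 or 3, 1 without control 1 or HKO 3). Risen female-biased genes numbered 5, against 3, with the block and without HKO 2, and fallen male-biased genes 6, against 3, without HKO 2. Of periportal genes, where none passed, 1 was lower with trend and robust eBayes and 1 higher without HKO 2, and 1 cholangiocyte marker was lower without control 3. The fits without 1 array also hold fewer arrays, and the cause of these changes was not tested. Numbers 1, 2 and 3 are not stated to pair the genotypes, and deviations of same-numbered livers correlated at -0.094, 0.069 and 0.112 across genes.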
